A study of Arabidopsis thaliana with 10 samples.

Results

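Transcripts of 8 circadian clock and clock-linked probe sets were followed in rosettes of Arabidopsis thaliana, out of 22746 probe sets on the array that were not controls. GI, COR27 and AT4G33980 were chosen by gene annotation, and each has a single probe set. The other 5 probe sets were chosen by their identifiers, as those of CCA1, LHY, PRR7, PRR5 and TOC1. The annotation table used here lists no gene for these 5, so their gene names rest on the selection rule alone and were not checked against a probe annotation. AT4G33980 is named there only by its locus code. The identifiers head the panels of the intensity plot. All 8 were chosen with earlier results of these data known. No probe or promoter sequences were used here.

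The plant circadian clock is a set of transcription factors that repress one another in turn through the day. CCA1 and LHY are MYB-type factors that peak around dawn and repress evening genes. The pseudo-response regulators PRR7 and PRR5 follow during the day, and TOC1, of the same family, follows in the evening, and these proteins repress CCA1 and LHY in turn. GI, which acts in the photoperiodic control of flowering, peaks late in the day. COR27 is a cold-regulated gene that also feeds back on the clock.

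The arrays held rosette RNA of 3 genotypes, wild type Col 0 (n = 3), abi4-102 (labelled aba insensitive 4, n = 3) and vtc1 (labelled vitamin C defective 1, n = 4), with no treatment. Plants of every genotype were 42 days old and had grown on compost with 8 h of light a day at 200 µmol m-2 s-1, 60% relative humidity, and 23 °C by day and 18 °C by night. The labels call each array a biological replicate, but do not say whether a replicate was 1 plant or a pool. They give no hour of harvest and no sowing batch. The p-values rest on the spread between these samples, which may be partly technical. Since a clock transcript changes with the hour, a difference in harvest hour between genotypes and a difference in transcript level at the same hour cannot be told apart here. In whole rosettes, fewer cells of a type and less RNA per cell cannot be told apart either.

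Values are the authors' linear intensities per probe set, and changes are differences of log2(intensity + 1), which understate the change of dim probe sets. A change was called at an adjusted p under 0.05 in limma, adjusted over all 22746 probe sets. The array medians lay between 42.6 and 45.6, and replicates correlated at 0.9972 to 0.9985 over all probe sets. The control level of an array, the highest of its 27 Bacillus control probe sets, lay between 15.2 and 19.8. Hybridization spike-ins, which carry no plant RNA, averaged 8.59 ± 0.12 on the log2 scale in vtc1 (SD, n = 4), 8.82 ± 0.05 in wild type (n = 3) and 8.79 ± 0.04 in abi4-102 (n = 3). Scaling on them moved the median change of all probe sets from -0.03 to 0.21 in vtc1 versus wild type, and raised the share of higher calls from 49.5% to 89.4%. Subtraction of array medians lowered that share to 36.4%. Values of vtc1 against another genotype are thus relative to the average transcript of the array. Spike-in scaled changes of vtc1 given below are to be read beside that shift of the median, which every probe set shares. The 3' minus 5' log2 difference of 1 actin control pair, a measure of RNA integrity, was 1.57 ± 0.07 in vtc1 and 1.48 ± 0.11 in abi4-102 but 1.83 ± 0.23 in wild type, whose 3 arrays were the highest, whereas that of a second actin pair was 2.02 ± 0.09, 1.98 ± 0.09 and 2.02 ± 0.18. The same difference of a GAPDH pair was 0.27 ± 0.10 in vtc1, 0.29 ± 0.21 in abi4-102 and 0.40 ± 0.08 in wild type, with overlapping ranges. The part of RNA integrity in the results was not tested. Of 6 rosette leaf markers 5 had a single-gene probe set in the annotation, all above the control level on all 10 arrays. The 2 root markers with such a probe set, EXPA7 and EXPA18, had means of 14.4 to 27.7. EXPA7 was above the control level on 9 of 10 arrays and EXPA18 on 2. The leaf markers were not level between genotypes: RCA, PRK and SBPASE were called lower in both mutants, by up to 1.60-fold for PRK in abi4-102 and 1.43-fold for SBPASE in vtc1, and LHCB4.1 and LHCB4.2 in neither. Under spike-in scaling RCA and PRK were at 0.07 and 0.02 in vtc1 and not called. The summed intensity of the 5 lay between 30175.6 and 30668.3 in wild type, 26158.8 and 27787.3 in abi4-102, and 27401.0 and 28294.2 in vtc1. EXPA7 was called lower in both mutants, by 1.33-fold in abi4-102 and 1.26-fold in vtc1, and EXPA18 in neither, with sums of 38.0 to 46.7 in wild type, 32.0 to 38.1 in abi4-102 and 34.0 to 41.2 in vtc1. Under spike-in scaling EXPA7 was at -0.10 in vtc1 and not called, and at -0.38 and called in abi4-102. The part of these markers in the changes of the clock genes was not tested.

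The clock transcripts differed between genotypes in different members. In vtc1 the transcripts called lower than in wild type were those of COR27, AT4G33980, TOC1, GI and PRR5, and in abi4-102 those of PRR7, GI and AT4G33980. Under spike-in scaling GI (-0.01) and PRR5 (0.02) were not called in vtc1. GI and AT4G33980 were called lower in both mutants, and the dawn genes CCA1 and LHY in neither. Over the 8 probe sets and 3 comparisons, 15 of 24 changes were called, where the share called over the whole array was 36.6% for vtc1 against wild type, 34.9% for abi4-102 against wild type and 39.0% between the mutants.

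**Figure D1:**
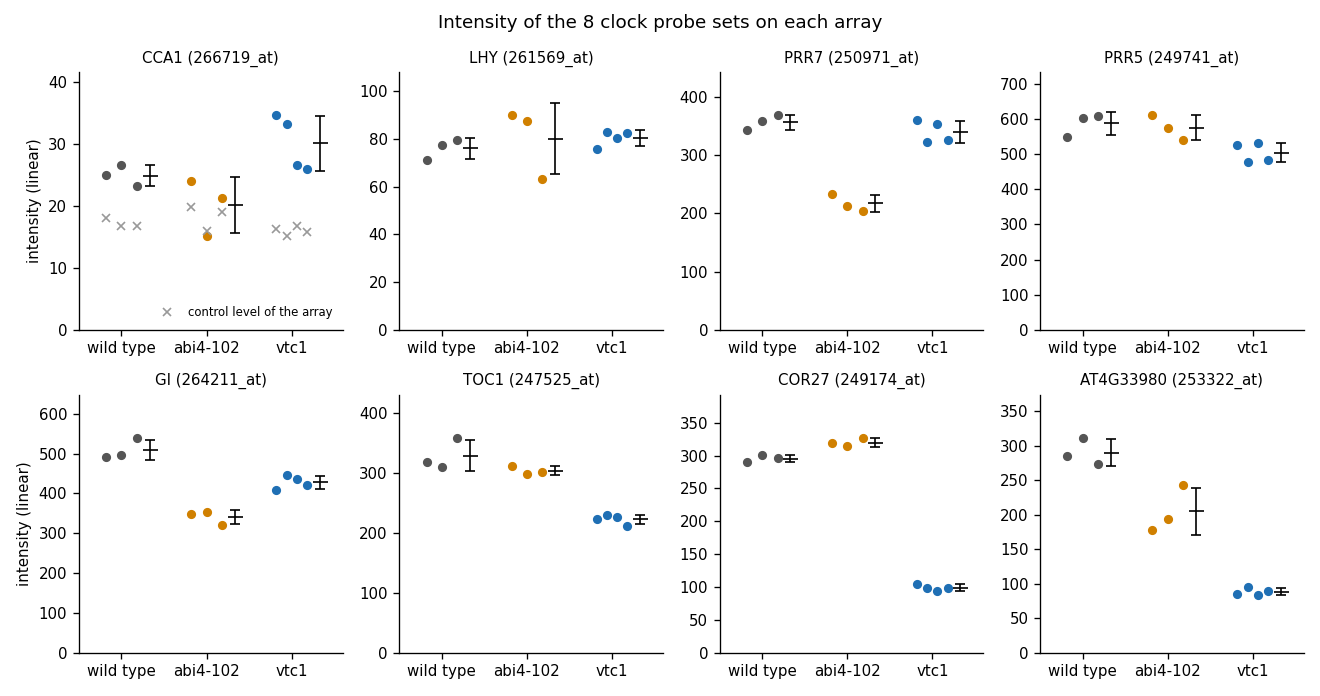
Linear intensity (vertical axes, starting at 0) of the 8 clock probe sets on each of the 10 arrays, by genotype, with the mean and SD of each genotype as a bar beside its points. COR27 and AT4G33980 lie lowest on the 4 vtc1 arrays, PRR7 and GI lowest on the 3 abi4-102 arrays, and the crosses in the CCA1 panel mark the control level of each array.

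The dawn genes were the dimmest of the set. The CCA1 probe set read 24.9, 26.5 and 23.2 in wild type, 24.0, 15.2 and 21.3 in abi4-102, and 34.6, 33.2, 26.5 and 25.9 in vtc1. The second abi4-102 array lay below its control level, and the 2 other arrays of that genotype lay less than 5 units above theirs, so the CCA1 signal in abi4-102 is close to the limit of what the array measures. Both mutants overlapped with wild type. The log2 change was 0.25 in vtc1 (SE 0.13, 95% interval -0.01 to 0.52, limma adjusted p = 0.134) and -0.31 in abi4-102 (SE 0.14, interval -0.60 to -0.02, adjusted p = 0.0894). Neither was called, although under spike-in scaling both were, at 0.49 and -0.28, beside medians of 0.21 and 0.03 over all probe sets. In abi4-102 that change was no larger than without the scaling, so its call (limma adjusted p = 0.0442) does not reflect a larger difference. The change in abi4-102 was also called without abi4-102 replicate 1 (-0.44, adjusted p = 0.0224), and was -0.13 and not called without abi4-102 replicate 2. Set against each other, every vtc1 array was above every abi4-102 array, and the difference was called (log2 0.57, SE 0.13, adjusted p = 0.00193). Its size is uncertain, since it was 0.35 with a pseudocount of 16 and 0.38 without abi4-102 replicate 2, the array below its control level, though called in both.

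LHY, the close partner of CCA1, read 71.1, 77.6 and 79.5 in wild type, 89.9, 87.4 and 63.0 in abi4-102, and 75.6, 82.8, 80.2 and 82.4 in vtc1. The abi4-102 arrays spanned the values of both other genotypes, with the third array lowest of all 10. No comparison was called: the change was 0.08 in vtc1 (interval -0.13 to 0.29, limma adjusted p = 0.584), 0.06 in abi4-102 (-0.16 to 0.28, adjusted p = 0.725) and 0.02 between the mutants (-0.19 to 0.23, adjusted p = 0.903). In vtc1 the change was called under spike-in scaling (0.31, beside a median of 0.21 over all probe sets). In abi4-102 it was called without abi4-102 replicate 3 (0.22) and was -0.03 without abi4-102 replicate 1.

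The day-phase regulators PRR7 and PRR5 parted by genotype. PRR7 read 343.1, 358.3 and 368.4 in wild type, 233.4, 213.2 and 204.3 in abi4-102, and 359.6, 322.1, 353.5 and 326.5 in vtc1. The abi4-102 arrays stood apart below the other 7, which overlapped. PRR7 fell 1.64-fold in abi4-102 (log2 -0.72, SE 0.07, limma adjusted p = 1.1e-06), and only 1.13% of all probe sets had a change this low or lower. In vtc1 the change was -0.07 (interval -0.21 to 0.07, adjusted p = 0.469, and 0.17 under spike-in scaling), and the test of the mutants against each other was called, with vtc1 1.57-fold above abi4-102 (log2 0.65, SE 0.07, adjusted p = 1.5e-06).

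PRR5 read 549.8, 603.1 and 610.2 in wild type, 610.9, 574.5 and 540.9 in abi4-102, and 526.1, 478.0, 530.9 and 483.5 in vtc1. The vtc1 arrays were the 4 lowest, and wild type and abi4-102 overlapped. PRR5 was called 1.16-fold lower in vtc1 than in wild type (log2 -0.22, SE 0.07, limma adjusted p = 0.0173), a small difference that was not called in 6 of 18 alternatives, among them wild type replicate 2 or 3 or vtc1 replicate 2 or 4 left out (adjusted p = 0.0517 to 0.0712), and was 0.02 under spike-in scaling. Against abi4-102 it was called 1.14-fold lower (log2 -0.19, adjusted p = 0.0355), also not called in 7 of 18 alternatives (adjusted p = 0.145 without abi4-102 replicate 1, and a change of 0.01 when scaled on the spike-ins). In abi4-102 the change from wild type was -0.03 (interval -0.18 to 0.12, adjusted p = 0.794).

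Of the evening genes, TOC1 was lower in vtc1 and GI lower in both mutants. TOC1 read 317.1, 309.6 and 357.5 in wild type, 311.2, 297.7 and 300.9 in abi4-102, and 222.5, 228.6, 226.3 and 210.8 in vtc1. All 4 vtc1 arrays lay below the other 6, and wild type and abi4-102 overlapped. TOC1 fell 1.47-fold in vtc1 (log2 -0.56, SE 0.06, limma adjusted p = 3.0e-06), and 3.43% of all probe sets had a change this low or lower. Against abi4-102 it was 1.36-fold lower (log2 -0.45, SE 0.06, adjusted p = 3.8e-05). In abi4-102 the change was -0.11 (interval -0.26 to 0.03, adjusted p = 0.239), called only under quantile normalization (-0.17, adjusted p = 0.0489).

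GI read 491.2, 497.8 and 539.1 in wild type, 348.8, 354.0 and 319.6 in abi4-102, and 408.6, 446.1, 437.3 and 420.3 in vtc1. The 3 genotypes did not overlap, with wild type highest and abi4-102 lowest. GI fell 1.49-fold in abi4-102 (log2 -0.58, SE 0.07, limma adjusted p = 6.1e-06), where 2.22% of probe sets had a change this low or lower. The fall in vtc1 was 1.19-fold (log2 -0.25, SE 0.06, adjusted p = 0.00504), a size that 13.9% of probe sets reached, and under spike-in scaling it was not called (-0.01). The mutants differed by 1.26-fold (log2 0.33, SE 0.06, adjusted p = 0.00057), with vtc1 the higher.

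In both comparisons with vtc1 the largest changes of the 8 were those of COR27 and AT4G33980. COR27 read 290.0, 300.1 and 296.2 in wild type, 318.7, 313.9 and 326.6 in abi4-102, and 104.9, 98.9, 93.5 and 98.6 in vtc1. The replicates were tight, with SDs of 1.73% to 4.7% of the mean, and the vtc1 arrays lay far below all others. COR27 fell 2.97-fold in vtc1 (log2 -1.57, SE 0.06, limma adjusted p = 7.0e-12), and was 3.21-fold lower in vtc1 than in abi4-102 (log2 -1.68, adjusted p = 1.7e-11). Only 39 of 22746 probe sets had a change as low as that of COR27 in vtc1 versus wild type, and 19 in vtc1 versus abi4-102, itself included. In abi4-102 each array was above each wild-type array, yet the change of 0.11 was not called (interval -0.02 to 0.25, adjusted p = 0.181), nor in any of 18 alternatives.

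AT4G33980 read 285.3, 310.8 and 273.4 in wild type, 176.9, 193.9 and 243.2 in abi4-102, and 84.6, 95.4, 83.3 and 89.9 in vtc1. The genotypes did not overlap, and abi4-102 varied most, with an SD of 16.8% of its mean. The gene fell 3.26-fold in vtc1 (log2 -1.70, SE 0.09, limma adjusted p = 4.5e-10) and 1.42-fold in abi4-102 (log2 -0.51, SE 0.10, adjusted p = 0.00067). The third abi4-102 array was the nearest to wild type, and the change was -0.64 without abi4-102 replicate 3 and -0.41 without abi4-102 replicate 1, called in both. It was 2.29-fold lower in vtc1 than in abi4-102 (log2 -1.19, SE 0.09, adjusted p = 8.5e-08). Only 31 probe sets had a change as low in vtc1 versus wild type.

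**Figure D2:**
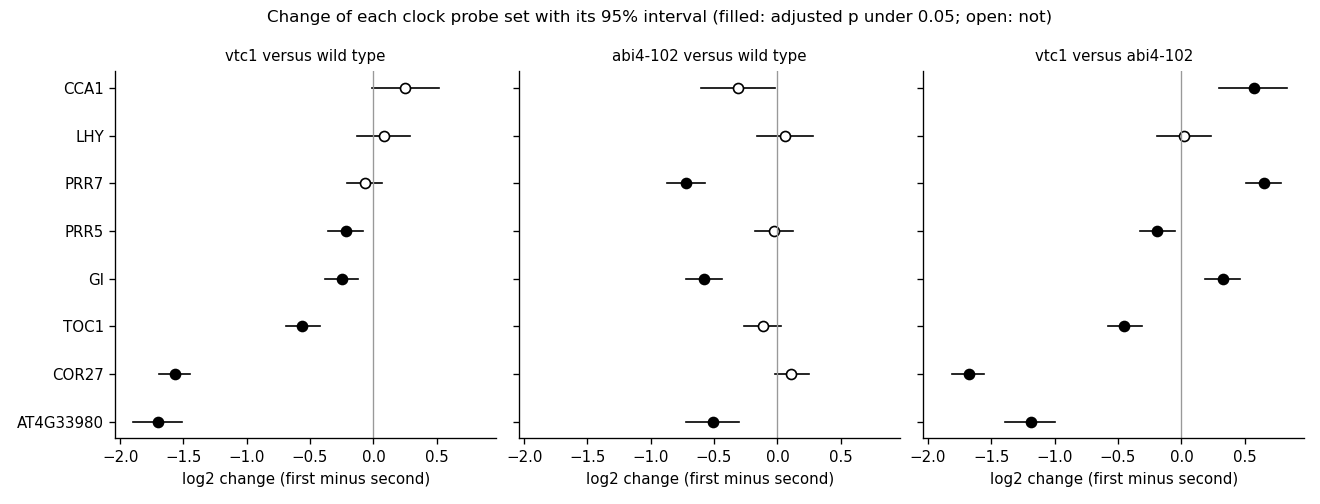
Log2 change (horizontal axes, first genotype minus second) of the 8 clock probe sets in each comparison, with 95% intervals from limma, filled where the adjusted p was under 0.05. In vtc1 versus wild type the changes run from 0.25 for CCA1 to -1.70 for AT4G33980, and in abi4-102 versus wild type the lowest is PRR7 at -0.72; under spike-in scaling the vtc1 changes of PRR7 and PRR5 turn above 0.

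The number of members called has to be read against a background in which a large share of the array was called. Since the members were chosen with earlier results of these data known, their counts and ranks are a description, not independent evidence. In vtc1 versus wild type 5 of 8 members were called, all lower, where 36.6% of all probe sets were called and 18.5% called lower. In abi4-102 versus wild type it was 3 of 8, where 34.9% were called (3645 probe sets lower and 4283 higher), so the share of members called was near the background there. Between the mutants 7 of 8 were called, 3 higher and 4 lower in vtc1, where 39.0% were called, 17.8% higher and 21.2% lower. Under spike-in scaling 86.7% of the calls between the mutants were higher in vtc1 (8604 higher and 1317 lower). Arrays did not overlap for 5, 4 and 7 members in the same order, against 41.9%, 43.5% and 42.0% of all probe sets. The median log2 change of the 8 was -0.23 in vtc1, -0.21 in abi4-102 and -0.08 between the mutants, beside medians of -0.03, -0.01 and -0.02 over all probe sets. The 2 comparisons with wild type share the 3 wild-type arrays.

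Differences between 2 probe sets of the same array are not changed by multiplying an array by a constant, although a pseudocount or quantile normalization does change them, so the balance of dawn and evening genes was followed in that way, as a description without a test. Its level has no meaning of its own, and only its shift between genotypes is given. The mean log2 value of the CCA1 and LHY probe sets minus that of GI and TOC1 was -2.63 ± 0.09 in vtc1 (SD, n = 4), above -2.98 ± 0.16 in abi4-102 (n = 3) and -3.20 ± 0.12 in wild type (n = 3). All 4 vtc1 arrays, at -2.74 to -2.53, lay above wild type, at -3.32 to -3.08, and above abi4-102, at -3.10 to -2.79, while wild type and abi4-102 overlapped. The balance was thus higher by 0.57 in vtc1 and by 0.22, with overlapping arrays, in abi4-102. In vtc1 CCA1 and LHY changed by 0.25 and 0.08, neither called, and GI and TOC1 by -0.25 and -0.56. In abi4-102 the same changes were -0.31 and 0.06, neither called, and -0.58 and -0.11. Of these genes only GI was called in abi4-102, and its lower value was the largest term in the balance there. With a pseudocount of 16 the shifts were 0.50 and 0.27, and neither mutant then overlapped with wild type.

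The shift was not the same for each pair of genes. CCA1 minus TOC1 was higher in vtc1 than in wild type by 0.81 and differed in abi4-102 by -0.20, with overlapping arrays in abi4-102 alone. The CCA1 signal in abi4-102 was close to the control level, so the balance and the pairs that include it are uncertain there. LHY minus GI was higher by 0.33 in vtc1 and by 0.64 in abi4-102, with no overlap in either. In vtc1 all 4 pairs of a dawn and an evening gene stood above wild type on every array (0.81, 0.33, 0.64 for LHY minus TOC1 and 0.50 for CCA1 minus GI). In abi4-102 the only such pair that did was LHY minus GI, and LHY minus TOC1 (0.17) and CCA1 minus GI (0.27) overlapped with wild type. The pairs share their genes, and GI and TOC1 alone were already lower in vtc1 without overlap, so the pairs are not separate results. Of single probe sets, 41.9% did not overlap in vtc1 versus wild type and 43.5% in abi4-102. The share over all pairs of probe sets was not computed.

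Genes grouped here under the same part of the day also parted from one another. Such genes need not peak at the same hour, and the part of harvest hour in these differences was not tested. GI minus TOC1, both evening genes, was 0.94 ± 0.05 in vtc1 (n = 4), 0.63 ± 0.05 in wild type (n = 3) and 0.17 ± 0.08 in abi4-102 (n = 3), so the mutants lay on opposite sides of wild type without overlap. PRR7 minus PRR5, both day genes, was -0.57 ± 0.02 in vtc1, -0.72 ± 0.04 in wild type and -1.40 ± 0.02 in abi4-102, again with no overlap. COR27 minus AT4G33980 was 0.03 ± 0.08 in wild type and 0.16 ± 0.11 in vtc1, which overlapped, and 0.65 ± 0.21 in abi4-102, above both. In vtc1 these 2 genes were therefore lower by a like amount, and in abi4-102 only AT4G33980 was called lower. As the hour of harvest is not stated, these values do not give the phase of the clock in any genotype.

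**Figure D3:**
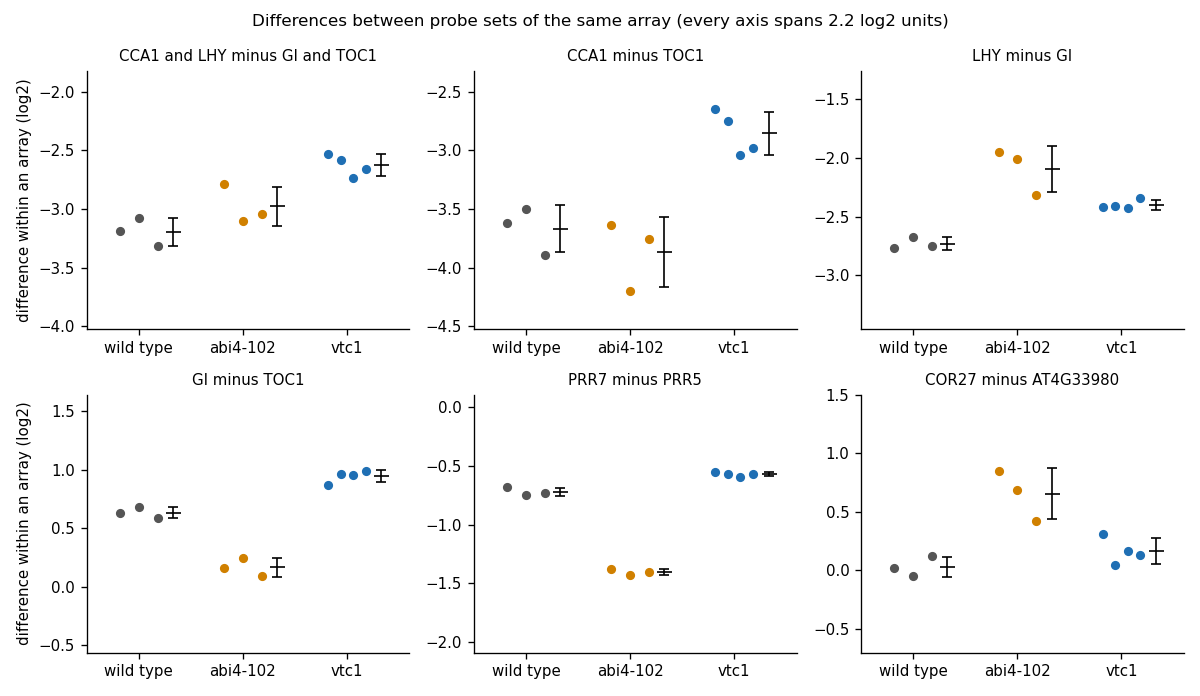
Differences in log2 intensity between probe sets of the same array (vertical axes, each spanning 2.2 log2 units) for 6 pairs or groups of clock genes, by genotype, with mean and SD. The dawn minus evening balance is highest in vtc1 (-2.63), whereas LHY minus GI is highest in abi4-102 (-2.09) and GI minus TOC1 lowest there (0.17).

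The rest of the clock could be followed only in part, since many probe sets carry no gene in the annotation. Of 33 other listed clock genes 5 had a single-gene probe set in the annotation used here, and none of the 9 listed morning-phased outputs, 3 evening-phased outputs and 8 genes of photoperiodic flowering had one. TIC, a nuclear regulator of clock period and amplitude, rose 1.36-fold in vtc1, from 268.4 ± 7.9 (SD, n = 3) to 365.7 ± 12.2 (n = 4; limma adjusted p = 2.0e-05). In abi4-102 it fell 1.18-fold to 227.6 ± 13.2 (n = 3; limma adjusted p = 0.00867), a fall not called under spike-in scaling (log2 -0.21). RVE5 and RVE6 belong to the family of CCA1 and LHY. RVE6 was called 1.16-fold lower in vtc1 (130.0 ± 6.8 against 151.5 ± 11.3) and 1.18-fold higher in abi4-102 (178.0 ± 5.9), so that the mutants differed by 1.37-fold (log2 -0.45, limma adjusted p = 5.3e-05). Each of the RVE6 changes from wild type was called in 14 of 18 alternatives, and under spike-in scaling that in vtc1 was 0.02. RVE5 rose 1.29-fold in vtc1 (limma adjusted p = 0.00167) and had a log2 change of 0.23 in abi4-102 (adjusted p = 0.0555). XCT, a nuclear protein that affects clock period, was called 1.16-fold lower in abi4-102 (log2 -0.21, adjusted p = 0.0232, called in 12 of 18 alternatives) and had a change of -0.08 in vtc1 (adjusted p = 0.348). FIO1 was not called in any comparison. Over this list 2 genes rose and 1 fell in vtc1, and 1 rose and 2 fell in abi4-102, beside 36.6% and 34.9% of all probe sets called in either direction. The median changes were -0.07 and -0.01, against -0.03 and -0.01 over all probe sets.

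Of 17 photoreceptor and light-signalling genes only HYH, a bZIP factor of light signalling, had a single-gene probe set in the annotation. It was above the control level on 1 of 10 arrays. Among the 10 listed cold-response genes, 3 had such a probe set. COR47, COR15A and COR15B were called lower in vtc1, by 2.06-fold, 1.43-fold and 1.45-fold, where 18.5% of all probe sets were called lower. Under spike-in scaling all 3 were still called, with COR15A at -0.28 and COR15B at -0.30 on the log2 scale, against -0.52 and -0.54 without it. In abi4-102 COR47 was called 1.21-fold lower (log2 -0.28, limma adjusted p = 0.00156, and -0.24 and not called under spike-in scaling), COR15A had a change of 0.15 (adjusted p = 0.113) and COR15B of -0.03 (adjusted p = 0.835). All 3 were lower in vtc1 than in abi4-102, by 1.70-fold, 1.58-fold and 1.43-fold.

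**Figure D4:**
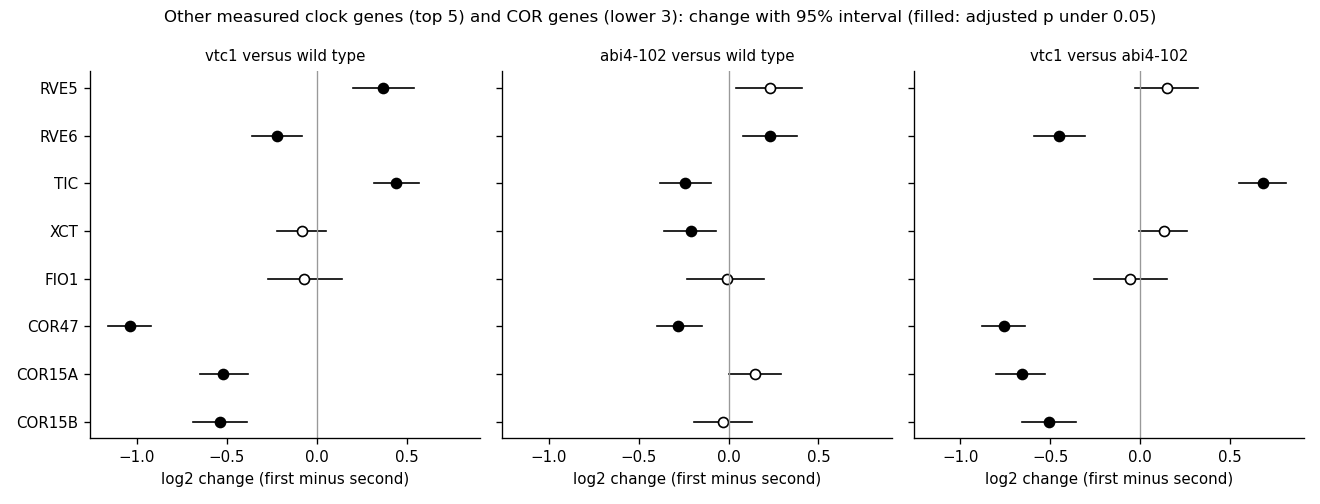
Log2 change (horizontal axes, first genotype minus second) with 95% intervals from limma, filled where the adjusted p was under 0.05. Shown are the 5 other clock genes with a single-gene probe set in the annotation and 3 cold-regulated genes. TIC lies above 0 in vtc1 (0.44) and below it in abi4-102 (-0.24), RVE6 the other way round (-0.22, or 0.02 under spike-in scaling, and 0.23), and the cold-regulated genes lie below 0 in vtc1.

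Genes with the most similar profile to each member were sought by Pearson correlation over the 10 arrays, among 9030 probe sets with 1 gene and at least 1 array above the control level. The arrays fall into 3 genotypes, so a high value mainly says that the genotype means are arranged alike, and it is given as a description. The closest to COR27 was AT5G67150 (r = 0.998), with means of 139 in wild type, 145 in the abi4-102 mutant and 94.5 in vtc1, followed by AT4G32340 (r = 0.997) and AT1G32860 (r = 0.996). The closest to AT4G33980 was AT1G66430 (r = 0.993; 248, 208 and 143 in the same order), with AT2G16630 and AT2G03420 next. PRR7 was matched most closely by IQD31 (r = 0.995; 127, 81.6 and 120), a member of the IQ-domain family of calmodulin-binding proteins, then by AT1G29470 and AT1G01320. For TOC1 it was AT4G30450 (r = 0.990; 219, 201 and 119), then AT1G77670 and AT3G10020, and for GI it was AT3G05350 (r = 0.970; 267, 196 and 224), then AT2G34620 and AT5G53080. The other 3 members had weaker matches, with AT2G34290 closest to PRR5 (r = 0.943), AT5G47690 to CCA1 (r = 0.942) and AT5G22690 to LHY (r = 0.893). AT2G34290 had means of 18.7, 17.8 and 15.6 in the same order, near the control level of the arrays. None of these genes is on the clock lists, of which only 5 other clock genes had a probe set that could be searched.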

How the data were processed

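Linear intensity per probe set on 10 arrays was taken from the table the authors deposited. How probes were summarised and arrays scaled was not given in the sources used here. Biotin-labelled cRNA was hybridised, per the labels' protocols. Without 64 controls 22746 probe sets remained, of which 13513 carried 1 gene, 503 several and 8730 none in the platform annotation. Gene IDs were matched to the TAIR10.1 gene table. Intensities were converted to log2(value + 1) without further normalization. A limma 3.58.1 model (R 4.3.3) with genotype as the only factor was fitted to all arrays, with moderated 2-sided tests and Benjamini-Hochberg adjustment, and was tested on simulated data. Python 3.11.15, pandas 2.3.3 and matplotlib 3.10.9 made tables and plots. Named were the 8 members, the list genes with a single-gene probe set and the 3 closest profiles per member. Members and lists were chosen with earlier results of these data known. Alternatives were a pseudocount of 16, subtraction of array medians, quantile normalization, scaling on 18 spike-in probe sets, a filter on dim probe sets, a replicate block, fits on 2 groups, an intensity trend, and leaving out each array. The number of arrays limits the precision.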

Additional observations from a re-analysis of the deposited data

How the results depend on the processing

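Over the 18 alternatives, the calls of COR27, AT4G33980 and TOC1 in vtc1 and of PRR7, GI and AT4G33980 in abi4-102 were kept in each one. Of 432 member changes under an alternative, 404 kept direction and side of the threshold, 14 lost a call, 6 gained one and 10 changed sign. Of the sign changes, 2 (PRR5 under spike-in scaling) are among the lost calls and the other 8 were called on neither side. Scaling on the spike-ins shifted each member by 0.24 in vtc1 versus wild type and by 0.20 in vtc1 versus abi4-102, and changed the sign for PRR7 (0.17) and PRR5 (0.02) in vtc1, for PRR5 in abi4-102 (0.00) and for PRR5 between the mutants (0.01). In abi4-102 versus wild type the shift was only 0.03. Calls that changed there came with nearly the same log2 change (CCA1, -0.31 and -0.28). LHY between the mutants was -0.02 with array medians subtracted and just below 0 (-0.00) under quantile normalization. With 1 array left out, CCA1 ranged from -0.44 to -0.13 in abi4-102 and from 0.38 to 0.70 between the mutants, LHY ranged from -0.03 to 0.22 and PRR5 from -0.08 to 0.01 in abi4-102, and LHY from -0.14 to 0.11 between the mutants. The number of members called ranged from 4 to 5, 3 to 4 and 6 to 7 with 1 array left out in vtc1, abi4-102 and the mutants against each other, and that of all probe sets from 7267 to 8617, 7060 to 7925 and 7800 to 8875.

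The dawn minus evening balance depended on the genes in it: with CCA1 and TOC1 alone the shift was 0.81 in vtc1, -0.20 in abi4-102 and 1.01 between the mutants, and with LHY and GI alone 0.33, 0.64 and -0.31. With 1 array left out the shifts of the 4 genes ranged from 0.51 to 0.63, 0.12 to 0.28 and 0.29 to 0.45. The cause of these differences was not tested.

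With the replicate number as a block, PRR5 was not called in vtc1 versus wild type (log2 -0.20, limma adjusted p = 0.0726) or versus abi4-102 (-0.17, adjusted p = 0.123); no other member's call changed. Deviations of same-numbered arrays correlated at -0.0547 to 0.1 over 9 pairs, and those of differently numbered arrays at -0.145 to 0.0755 over 24 pairs. The highest values, 0.1 and 0.0871, were of same-numbered wild-type and vtc1 arrays. The labels do not say that the numbers mark a batch, and they were not taken as pairs in the main fit. With the block, 7414, 7611 and 7971 probe sets were called in the 3 comparisons, against 8327, 7928 and 8872 without it. CCA1 lay below the control level on 1 array, which limits what its values show.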
